A study of Mus musculus with 8 samples.

Results

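The 181 ATAC-seq peaks in and around 8 mouse genes are described here, out of 134407 peaks in all. The genes are Smad2, Smad3 and Smad4, which carry the Nodal, activin and TGF-β signal into the nucleus, and Smad7, Skil, Ski, Tgif1 and Pmepa1, which hold that signal in check. A peak was taken as a member when its centre lay inside the GRCm38 span of one of these genes or within 50 kb of it. The cells were E14, an established wild-type line of mouse embryonic stem cells, kept in serum and LIF on gelatin. ATAC-seq marks accessible DNA by the cuts of the transposase Tn5. Control cells (4 libraries) were set against cells paused for 24 h with 200 nM INK128 (4 libraries), an inhibitor of the growth kinase mTOR. Pausing is a slow-growing, reversible state likened to that of a dormant blastocyst, and the comparison asks how this state alters accessible chromatin at these genes. All libraries come from this 1 line, and nothing in the labels says that replicates were separate cultures, so that the p-values measure the spread between these libraries only.

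In the pathway, a Nodal or activin ligand brings together receptors that phosphorylate Smad2 and Smad3. These join Smad4 and bind DNA with partners such as Foxh1. Smad7 blocks the receptors, Ski and Skil (also called SnoN) bind Smad complexes and recruit repressors, Tgif1 is a homeodomain corepressor of Smad2, and Pmepa1 keeps Smad2 and Smad3 from the receptors. Several of these inhibitors are themselves induced by the pathway and so form feedback loops. In embryonic stem cells Nodal signalling is active in culture and is known for its part in the exit towards mesoderm and endoderm.

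Promoter sequence was matched in RefSeq (GRCm38.p6) for 3 of the 8 genes, Smad3, Ski and Tgif1, all on the minus strand. A stretch of 250 bases before an annotated start is printed for each. Those of Smad3 and Ski are shown because they lie at or near the start peaks described further on. For Tgif1, which has 5 listed starts, the stretch with the most motif matches is shown, and it was chosen for them. Capitals mark a match to 1 of 4 motifs searched on both strands: the Smad box CAGACA, the GC-rich Smad site GGCGCC, the Foxh1 motif TGTNNATT and the Tgif motif TGACAG. The Smad3 stretch lies at chr9:63757995-63758244, the Ski stretch at chr4:155222536-155222785 and the stretch before the second listed Tgif1 start at chr17:70851735-70851984.
Smad3: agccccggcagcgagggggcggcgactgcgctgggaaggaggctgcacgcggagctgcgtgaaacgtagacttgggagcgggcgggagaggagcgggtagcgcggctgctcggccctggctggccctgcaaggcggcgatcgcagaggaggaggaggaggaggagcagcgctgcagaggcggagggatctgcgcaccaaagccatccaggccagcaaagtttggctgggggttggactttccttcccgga
Ski: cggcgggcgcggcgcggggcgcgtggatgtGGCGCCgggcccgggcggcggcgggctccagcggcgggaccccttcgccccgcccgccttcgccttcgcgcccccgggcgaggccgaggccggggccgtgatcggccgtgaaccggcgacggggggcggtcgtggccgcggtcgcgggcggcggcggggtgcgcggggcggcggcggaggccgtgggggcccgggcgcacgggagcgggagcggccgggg
Tgif1 start 2: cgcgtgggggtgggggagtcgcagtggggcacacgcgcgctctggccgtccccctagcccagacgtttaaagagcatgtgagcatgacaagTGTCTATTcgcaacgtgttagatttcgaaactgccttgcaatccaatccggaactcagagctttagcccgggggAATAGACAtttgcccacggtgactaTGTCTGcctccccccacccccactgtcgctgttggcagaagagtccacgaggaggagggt
No letters of the 4 motifs occurred in the Smad3 window, whose GC content was 69.2%. The Ski window, with a GC content of 87.6%, held 1 GC-rich Smad site that begins 220 bases before the start. The Tgif1 window held 1 Smad box on the opposite strand, 60 bases before the start, and 2 Foxh1 motifs, 159 and 85 bases before it, the second on the opposite strand. Before the first Tgif1 start there was 1 Smad box, and before the other 3 starts, the fourth of which is the nearest to the Tgif1 start peak, no match. Among 32851 mouse promoter windows of this length, 17.1% held the Smad box, 9.59% the GC-rich Smad site, 10.9% the Foxh1 motif and 15.9% the Tgif motif. A match is a run of letters and says nothing of binding.

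The unit of every level below is the deposited value, a read count per 201 bp peak divided by 1 factor per library. Depth ran from 4434037 to 21161767 reads in peaks, the highest in control replicate 1, and a value of 3 reads, the most that a count of 0 allows, was between 1.04 and 5.08. Of all peaks, 127402 had a mean value of at least 10 and were tested. The labelled cell type was checked on peaks within 1 kb of a gene end. Of 9 embryonic stem cell markers 6 had such a peak, with summed values of 963 to 1053 in control and 1171 to 1324 in paused libraries, and Pou5f1, Dppa5a and Tdgf1 had none. The sums were 237 to 283 against 261 to 303 for primitive endoderm (3 of 7 markers, Gata4, Pdgfra, Foxa2 and Dab2 at 0), 318 to 350 against 317 to 390 for trophoblast (5 of 6, Eomes at 0) and 358 to 441 against 437 to 483 for fibroblast feeders (4 of 6, Col3a1 and Postn at 0). The part of such shifts in the results below was not tested. In bulk cells, a change in the share of cells that hold a site open and a change in each cell cannot be told apart.

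In paused cells 15 member peaks were more accessible and 6 less. Smad2, Ski and Tgif1 held 11 of the rises and no fall, and Skil held 3 of the falls and no rise. Smad3 had 1 rise, and Smad4, Smad7 and Pmepa1 had 1 peak in each direction. The test was limma-trend on log2(value + 1) with Benjamini-Hochberg adjusted p under 0.05 over all tested peaks, and a peak that passed is called here. The 21 calls were 12.1% of the 173 member peaks tested, against 13.9% of all tested peaks. Higher calls made up 8.67% of the members and 11.0% of all peaks, and lower calls 3.47% and 2.91%. The member count is thus near the background in both directions. By gene, higher calls were 3 of 8 tested peaks at Smad2 (37.5%), 4 of 28 at Ski (14.3%) and 4 of 22 at Tgif1 (18.2%), and lower calls 3 of 22 at Skil (13.6%). Such counts are small, and no difference between genes was tested. Of the 173 tested member peaks, 18 had all 4 paused values above all 4 control values and 8 had all below. Among all tested peaks 17.4% had such non-overlapping groups, 13.0% upward and 4.36% downward. A log2 change above 0 was seen at 59.5% of member peaks and 61.3% of all.

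These counts lean on how libraries are scaled. On the deposited scale the median log2 change was 0.10 over all tested peaks and 0.06 over the members. After TMM scaling the median of all peaks lay at -0.01 and edgeR called 8 member peaks higher and 11 lower, beside 7.13% and 5.54% of all peaks. Scaled to reads in peaks, edgeR called 6 higher and 16 lower, beside 5.26% and 7.50% of all peaks. All 6 peaks called lower in the main test were again called lower under both scalings, whereas 8 and 6 of the 15 higher ones were again called higher. Both scalings moved the median change of all peaks downward, to -0.01 and -0.07, which by itself favours falls over rises. This contrast therefore does not show that the falls are firmer. DESeq2 kept 4 of the 15 higher and 2 of the 6 lower calls, and limma-trend after a loess correction for peak strength kept 6 and 2. Each of the 21 called peaks kept its sign in every alternative run, and 4 of them kept the call in every alternative that tested them: the pair below Smad2, 1 peak inside Ski and 1 peak inside Pmepa1. With a mean of at least 50 reads required, 11 of the 21 were tested, without the Ski peak and 1 of the Smad2 pair.

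**Figure D1:**
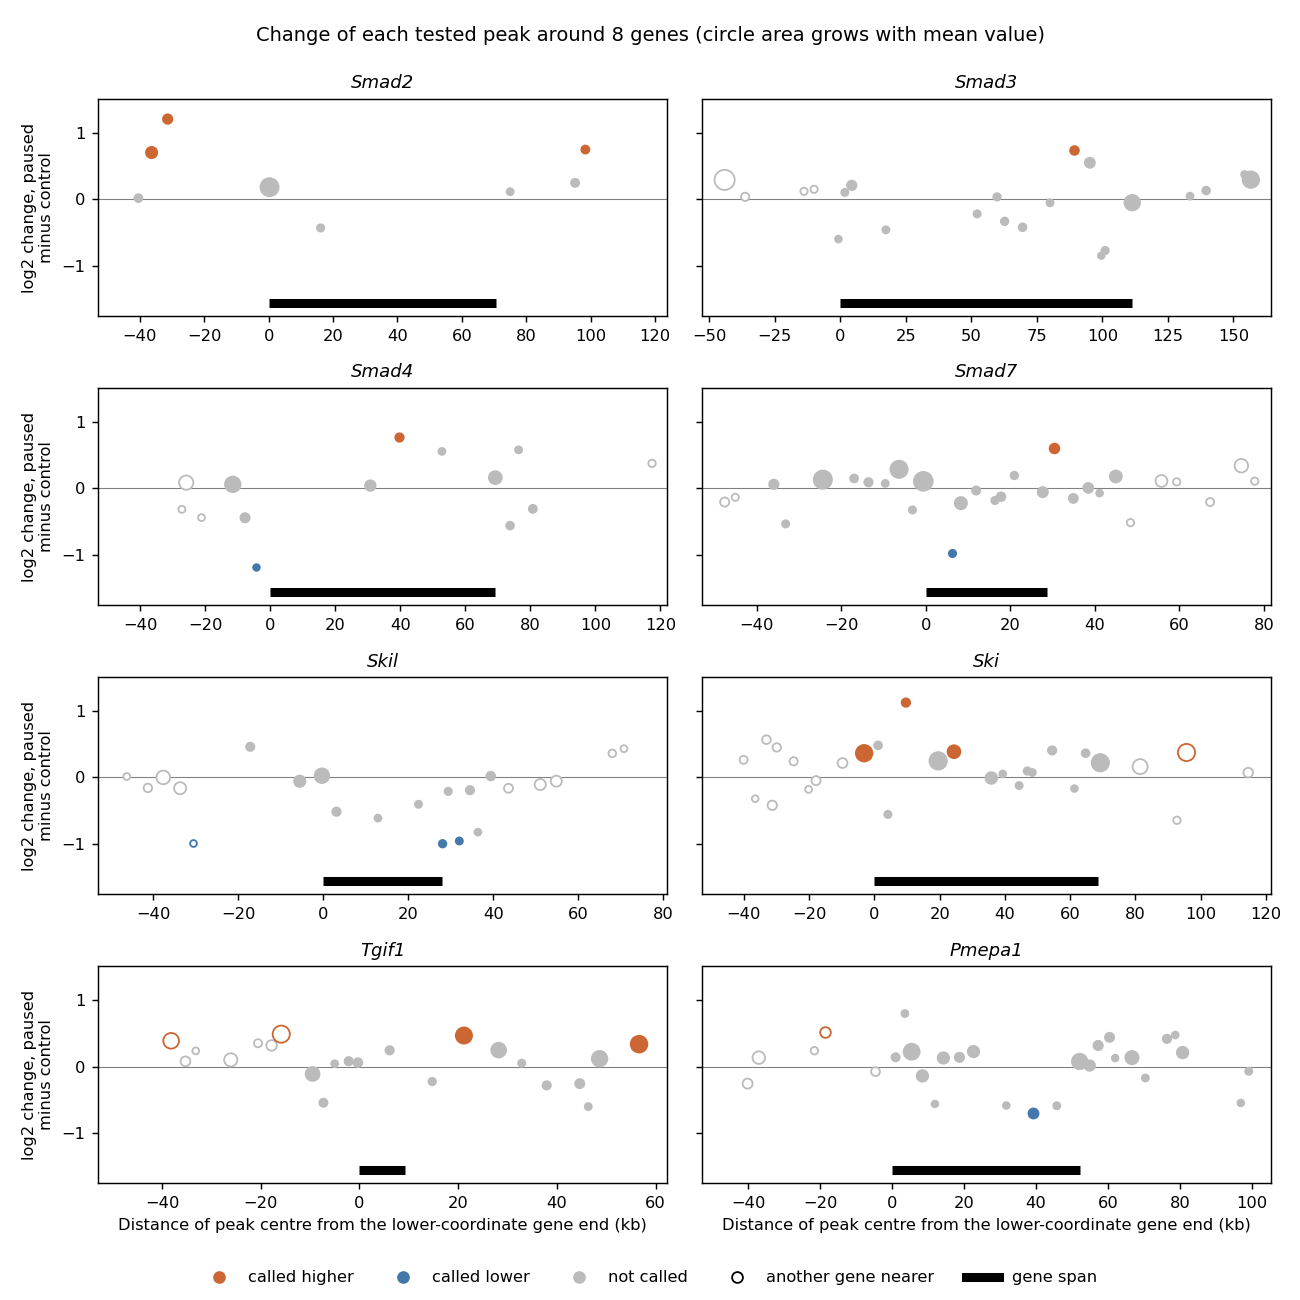
The log2 change (paused minus control) of each tested peak is plotted against its distance in kb from the lower-coordinate end of each gene, with the gene span as a black bar and circle area growing with mean value. Orange peaks were called higher (15), blue lower (6), and open circles lie nearer to another gene. The blue circles of Skil and the orange pair below Smad2 stand away from the zero line.

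The 8 genes differed in how many peaks they had, from 9 around Smad2 (5.27 per 100 kb) to 30 around Pmepa1 (19.7 per 100 kb). Smad7 was the densest, with 29 peaks and 22.6 per 100 kb. Between them lay Smad3 with 23 peaks, Smad4 with 16, Skil with 23, Ski with 29 and Tgif1 with 22. For 127 peaks the member was the nearest protein-coding gene, and 54 were nearer to another gene. The other genes were mostly Morn1 (9 peaks of the Ski window), Dlgap1 (7 of Tgif1), Ctif (6 of Smad7), Prkci and Cldn11 (5 each of Skil) and Zbp1 (5 of Pmepa1). The peaks nearest to a member held 11 higher and 5 lower calls of 122 tested (9.02% and 4.10%). The others held 4 higher and 1 lower of 51 (7.84% and 1.96%). Beside these stand 11.0% higher and 2.91% lower calls of all tested peaks, and the 2 sets were not tested against each other. Exons and introns were not told apart here.

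The peak at the start or strongest end was open in both states at all 8 genes, and at none of these peaks was a change called. Where the strand was not given, the stronger of the peaks at the 2 gene ends stands for the start. At Skil the peak nearest to an end was the weaker one, 220 bp from the upper end, and it was called lower. In control cells the value was highest for Smad7 at 285 ± 28.3 (SD, n = 4), then Smad2 at 255 ± 41.1, Ski at 227 ± 27.8, Smad3 at 196 ± 36.3, Pmepa1 at 185 ± 33.0, Skil at 166 ± 34.9, Smad4 at 115 ± 11.7 and Tgif1 at 32.3 ± 10.0. Neighbours in this order overlapped between their control libraries, except that Skil lay above Smad4 and Smad4 above Tgif1 in every library. Paused means were 306 for Smad7, 288 for Smad2, 265 for Ski, 188 for Smad3, 194 for Pmepa1, 168 for Skil, 130 for Smad4 and 37.1 for Tgif1. Each pair of groups overlapped. The 95% interval of the log2 change was -0.11 to 0.32 at Smad7, -0.06 to 0.42 at Smad2, -0.01 to 0.45 at Ski and -0.31 to 0.21 at Smad3. It was -0.17 to 0.32 at Pmepa1, -0.25 to 0.30 at Skil, -0.11 to 0.43 at Smad4 and -0.19 to 0.67 at Tgif1. Each interval holds the changes that these libraries do not exclude at that peak.

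**Figure D2:**
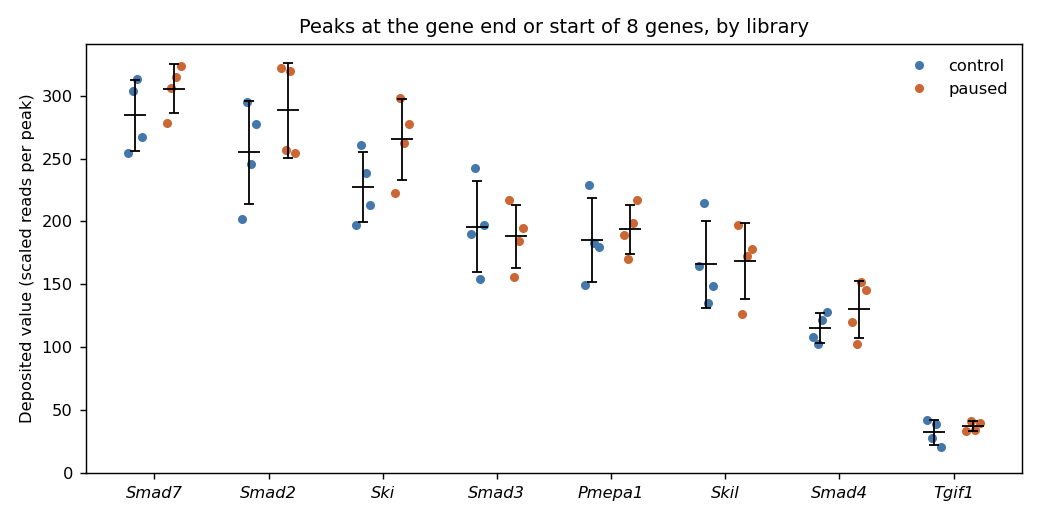
Deposited values (scaled reads per 201 bp peak) of the peak at the start or strongest end of each gene are shown for 4 control and 4 paused libraries, with mean and SD as bars. The groups overlap at all 8 genes, and Tgif1 is lowest in both states (32.3 and 37.1).

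Smad2, 1 of the 2 receptor-activated Smads that mediate Nodal signals, had the largest single rise. Its gene spans chr18:76241090-76311748, and a pair of peaks whose centres are 4984 bp apart lay between Zbtb7c and Smad2. The peak at chr18:76209662-76209862, 31328 bp from the gene, had control values of 36.0, 25.1, 33.9 and 27.9 and paused values of 75.0, 85.2, 57.4 and 70.3. The lowest paused library was well above the highest control library, and the mean rose 2.34-fold, with a log2 change of 1.20 ± 0.18 (SE) and an adjusted p of 1.4e-05 in limma-trend. Its neighbour at chr18:76204678-76204878 had control values of 64.0, 60.9, 72.8 and 67.6 and paused values of 108, 104, 116 and 104. Here too the groups were apart, with a log2 change of 0.70 ± 0.14 and a limma-trend adjusted p of 0.00048. On the far side of the gene, 27658 bp away, the peak at chr18:76339306-76339506 rose from 21.6 ± 3.66 to 37.2 ± 8.16 (SD, n = 4 each), a log2 change of 0.75. That call was lost without control replicate 2 or 4 or paused replicate 2 or 3, at log2 changes of 0.63 to 0.71. The start peak of Smad2, its strongest, was at 202, 295, 246 and 278 in control and 322, 257, 320 and 254 in paused libraries. Its groups were mixed.

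Smad3, the other receptor-activated Smad, spans chr9:63646766-63757994 and had 1 called peak among 22 tested. This peak, inside the gene at chr9:63735814-63736014 and 22080 bp from the start, read 38.4, 28.7, 30.5 and 23.5 in control and 48.5, 52.1, 43.4 and 58.6 in paused libraries. All paused values were above all control values, and the log2 change was 0.74 ± 0.19 (limma-trend adjusted p 0.0075). It kept the call without any 1 library. The start peak at chr9:63758045-63758245 covers most of the promoter stretch printed above, and read 190, 242, 154 and 197 in control against 217, 156, 185 and 194 in paused libraries. No direction was visible there, with a log2 change of -0.05 ± 0.13. The strongest Smad3 peak lay 45430 bp beyond the start and had means of 198 ± 19.0 and 243 ± 20.6 (limma-trend adjusted p 0.070, not called).

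Smad4, the shared partner of all receptor-activated Smads, spans chr18:73634790-73703791 and had 1 called peak in each direction. Inside the gene, chr18:73674295-73674495 read 29.0, 28.7, 23.7 and 20.6 in control and 50.8, 55.2, 37.2 and 35.2 in paused libraries. The groups did not overlap and the log2 change was 0.77 ± 0.21 (limma-trend adjusted p 0.0098), a call lost without paused replicate 2 at a log2 change of 0.66. The fall was at chr18:73630225-73630425, 4465 bp below the gene, with 13.5, 9.55, 25.4 and 11.8 in control and 5.77, 6.31, 7.76 and 3.51 in paused libraries. This was the weakest called member peak, with a mean of 10.9 reads per library, and 1 control library was far above the other 3. Its mean value of 10.4 passed the filter of 10 only through the control libraries, since the paused mean was 5.84. Its log2 change was -1.18 ± 0.39 (limma-trend adjusted p 0.039), and the call was lost without any of 6 libraries (control replicates 1, 3 and 4, paused replicates 1, 2 and 4), at log2 changes of -0.91 to -1.26.

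Smad7, the inhibitory Smad of the TGF-β side, spans chr18:75367365-75395935. Its start peak was the strongest of the 8 in control cells and read 254, 303, 313 and 267 in control and 278, 306, 315 and 323 in paused libraries. The 2 called peaks of Smad7 were weaker, and in both the groups overlapped. At chr18:75397509-75397709, 1674 bp beyond the gene, the mean rose from 45.7 ± 13.6 to 68.2 ± 6.87, a log2 change of 0.60 ± 0.18 (limma-trend adjusted p 0.017). Inside the gene, chr18:75373531-75373731 fell from 25.1 ± 4.29 to 13.7 ± 7.66, a log2 change of -0.97 ± 0.31 (limma-trend adjusted p 0.030). Paused replicates 1 and 2 were low there (8.07 and 6.31), and replicates 3 and 4 (21.7 and 18.8) sat close to control. The rise lost its call without control replicate 1 or 2 or paused replicate 4 (log2 change 0.47 to 0.56), and the fall without control replicate 2, 3 or 4 or paused replicate 1 or 2 (-0.69 to -0.99).

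Skil, which encodes the Smad corepressor SnoN and is itself a known target of the pathway, spans chr3:31095058-31122923 and had 3 lower and no higher calls among 22 tested peaks. A pair of them, 3931 bp apart, lay at the upper end of the gene. The first, chr3:31123043-31123243, is 220 bp from that end and read 21.1, 27.5, 42.3 and 26.5 in control and 11.5, 11.0, 21.7 and 12.9 in paused libraries. The ratio of means was 0.487 (log2 change -0.99 ± 0.27, limma-trend adjusted p 0.012), with paused replicate 3 just above the lowest control value. The second, chr3:31126974-31127174, read 18.0, 22.7, 18.6 and 26.5 in control and 11.5, 7.89, 14.0 and 9.37 in paused libraries. Its groups did not overlap (log2 change -0.95 ± 0.30, limma-trend adjusted p 0.026). Another peak, chr3:31064351-31064551, lies nearer to Prkci and fell from 17.1 ± 4.40 to 8.28 ± 2.68, a log2 change of -0.98. None of the 3 kept the call in every fit without 1 library. The first lost it without control replicate 3 (-0.81), the second without control replicate 2 or 4 or paused replicate 2 or 4 (-0.83 to -0.92), and the third without control replicate 1, 2 or 4 or paused replicate 1 or 4 (-0.77 to -0.998). The strong peak at the lower end of Skil, chr3:31094659-31094859, read 164, 215, 135 and 148 in control and 197, 126, 172 and 178 in paused libraries, a log2 change of 0.03 ± 0.14. The difference between the 2 ends was not tested.

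Ski, the proto-oncogene that gave the Ski and Skil family its name, spans chr4:155154075-155222535 and had 4 higher and no lower calls among 28 tested peaks. The largest rise was inside the gene at chr4:155163610-155163810, with 19.7, 20.3, 27.1 and 22.0 in control and 46.1, 45.7, 54.3 and 51.6 in paused libraries. All paused values were far above all control values, the ratio of means was 2.22, and the log2 change was 1.12 ± 0.20 (limma-trend adjusted p 0.00015), a call kept in every alternative that tested it (its mean of 31.6 reads is under the filter of 50 reads). The other 3 were strong peaks with small changes. The peak 3165 bp below the gene (chr4:155150810-155151010) rose from 193 ± 27.4 to 247 ± 13.5, the peak inside it at chr4:155178347-155178547 from 105 ± 13.1 to 138 ± 20.4, and chr4:155249340-155249540, inside Faap20, from 208 ± 5.99 to 274 ± 27.3. Their log2 changes were 0.36, 0.39 and 0.39. After TMM scaling none of these 3 was called in edgeR, at a lowest log2 change over all alternatives of 0.16, 0.19 and 0.18. The first lost its call without control replicate 1 or 4 or paused replicate 2, 3 or 4 (0.29 to 0.37), the second without 6 of the 8 libraries, all but control replicate 1 and paused replicate 2 (0.30 to 0.40), and the third without paused replicate 2 (0.34). The start peak of Ski, whose centre lies 772 bp before the start and outside the promoter stretch printed above, read 197, 260, 239 and 213 in control and 223, 298, 262 and 278 in paused libraries. Its groups overlapped.

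Tgif1, a homeodomain protein that represses with Smad2 and is linked to forebrain development, is the shortest gene of the set (9328 bp, chr17:70844205-70853532). It had 4 higher and no lower calls among 22 tested peaks, all outside the gene and all strong. The peak at chr17:70828266-70828466, nearer to Dlgap1, read 190, 201, 190 and 219 in control and 239, 323, 262 and 302 in paused libraries. The peak at chr17:70865286-70865486, 11854 bp beyond the start side of the gene, read 169, 182, 185 and 169 in control and 194, 249, 258 and 280 in paused libraries. Both had groups that did not overlap, with log2 changes of 0.49 ± 0.11 (limma-trend adjusted p 0.0031) and 0.46 ± 0.12 (limma-trend adjusted p 0.0060), and both kept the call without any 1 library. The other 2 were chr17:70805951-70806151 inside Dlgap1 (170 ± 11.8 to 222 ± 12.4, log2 change 0.39) and chr17:70900773-70900973 (199 ± 10.1 to 252 ± 13.2, log2 change 0.34). The first of these lost the call without control or paused replicate 4 (0.34 and 0.35) and the second without control replicate 1 or 3 or paused replicate 3 or 4 (0.31 to 0.32), and neither was called by edgeR after TMM scaling. The only peak inside the gene, just before the fourth of the 5 listed starts, had values between 20.6 and 42.2 in control and between 33.5 and 41.0 in paused libraries. It was weaker than each of the 4 called peaks, which lie outside the gene.

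Pmepa1, a membrane protein that sequesters Smad2 and Smad3 and is a common target of TGF-β signals, spans chr2:173224458-173276731. Its fall inside the gene at chr2:173263619-173263819 was the strongest peak of the 6 called lower, with 63.6, 76.4, 89.7 and 80.8 in control and 36.9, 39.4, 71.4 and 46.9 in paused libraries. Paused replicate 3 lay among the control values and the other 3 below them all. The log2 change was -0.70 ± 0.17 (limma-trend adjusted p 0.0056), and the call was kept in every alternative. Below the gene, chr2:173205676-173205876 lies nearer to Zbp1 and rose from 62.1 ± 15.7 to 86.7 ± 7.75, a log2 change of 0.51. This call was lost without control replicate 3, whose value of 39.0 was the lowest (0.31), and without paused replicate 2, 3 or 4 (0.45 to 0.52). The strongest Pmepa1 peak, inside the gene at chr2:173229786-173229986, had means of 190 ± 30.7 and 221 ± 31.1 and overlapping groups.

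**Figure D3:**
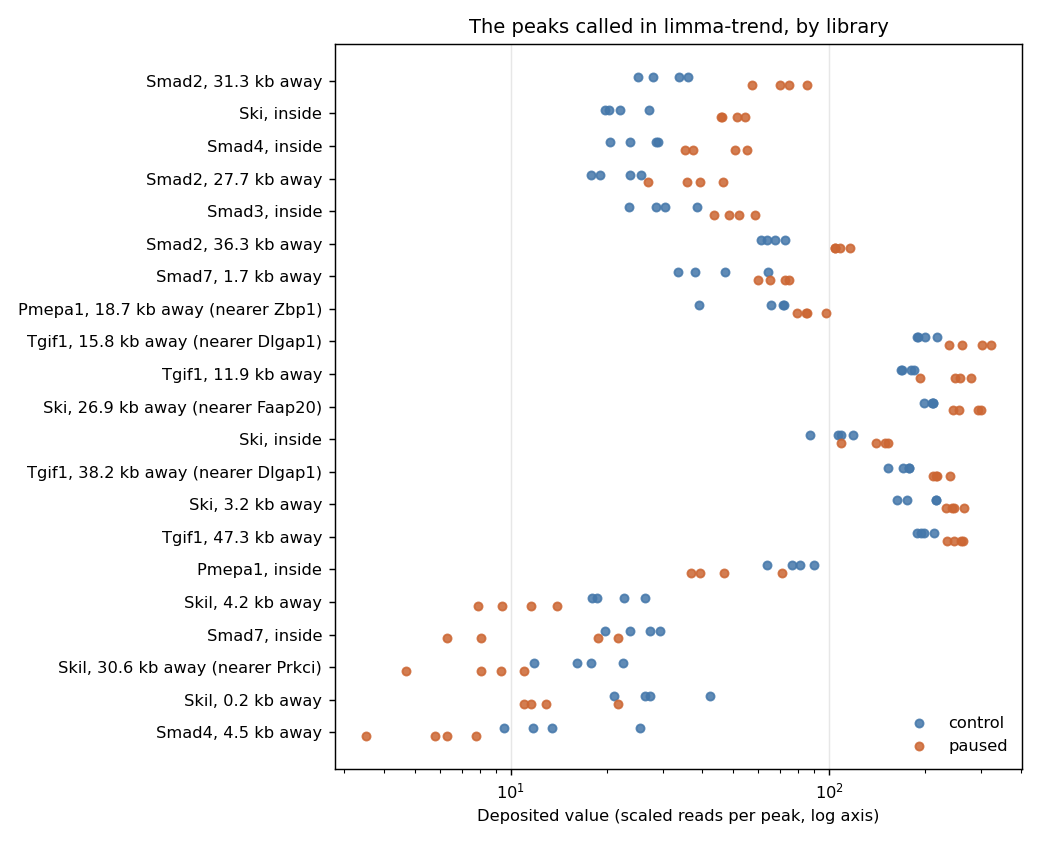
Deposited values on a log axis for the 21 called member peaks, 4 control (blue) and 4 paused (orange) libraries each, ordered by log2 change and labelled by gene and distance. Of the 15 peaks called higher, 13 have groups that do not overlap, and of the 6 called lower, 3. The peaks were chosen by a test on these same values, so such separation is no further support. Over all tested peaks, called or not, the shares were 13.0% upward and 4.36% downward.

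Rises and falls covered different ranges of peak strength. The peaks called lower had mean values of at most 63.1, and those called higher of at least 29.4. When all tested peaks were split by mean value into 4 bins of equal size, the weakest bin (below 20.4) held 4 lower and no higher calls of 56 member peaks, and the strongest (from 70.7) held 9 higher and no lower calls of 47. The 2 middle bins held 1 higher and 1 lower call of 33, and 5 higher and 1 lower call of 37. Over all peaks the same slope was present. From weakest to strongest bin the median log2 change was -0.11, 0.05, 0.12 and 0.20 for all tested peaks and -0.18, 0.10, 0.06 and 0.16 for the members. Over the same 4 bins falls made up 4.21%, 3.68%, 2.88% and 0.851% of all tested peaks, and rises 2.67%, 7.40%, 14.1% and 19.7%. After a loess correction of each library for peak strength, limma-trend called 6 member peaks higher and 5 lower, beside 5.10% and 3.50% of all peaks, and 6 and 2 of the original calls were among them. The part of peak strength in the direction of single peaks was not tested beyond this.

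**Figure D4:**
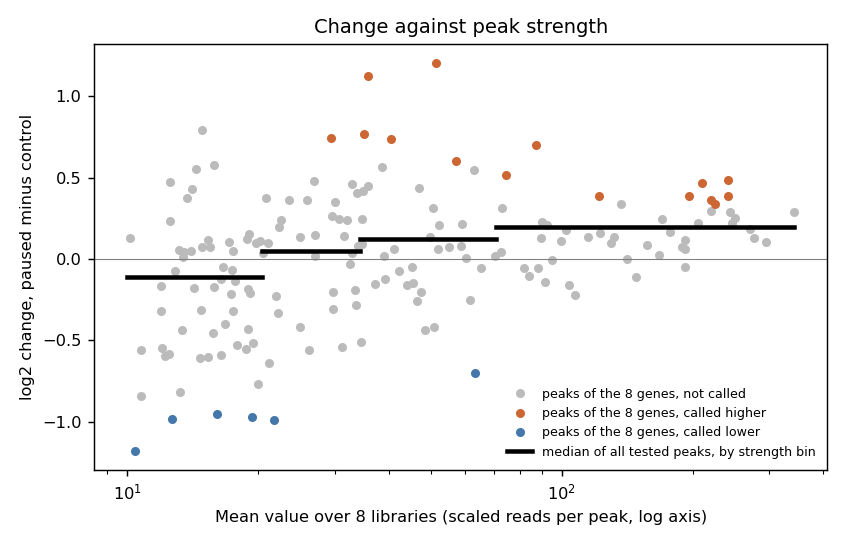
The log2 change (paused minus control) of each tested member peak against its mean value over 8 libraries (log axis), with the median of all tested peaks in each of 4 strength bins as a black line. The line climbs from -0.11 to 0.20, the 6 blue peaks (called lower) lie at mean values up to 63.1, and the orange peaks (called higher) at 29.4 or more.

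Summed over its window of 50 kb, accessibility had the highest ratio of paused to control at Smad2. With a window of 25 kb, which leaves out its 3 called peaks, Smad2 had a ratio of 1.11, below those of Ski (1.16) and Tgif1 (1.19). In the 50 kb window of Smad2 the sum of values was 431, 515, 456 and 489 in control and 639, 576, 652 and 559 in paused libraries. The ratio of means was 1.28 with no overlap. Around Ski the sum was 1797, 1789, 1908 and 1778 in control and 2034, 2132, 2189 and 2146 in paused libraries, and around Tgif1 it was 1823, 1801, 1893 and 1791 against 1995, 2180, 2168 and 2164. Both sets of paused libraries lay above all control libraries, at ratios of 1.17 and 1.16. Over only the peaks with the member as nearest gene, the ratio was 1.20 at Ski, without overlap, and 1.11 at Tgif1, with overlap. Skil had the only ratio below 1 on the deposited scale (0.923), with 1055, 1204, 1006 and 1149 in control and 977, 1032, 1013 and 1053 in paused libraries, which overlap. Over only the peaks nearest to Skil the ratio was 0.886, with all paused sums below all control sums. The ratios of Smad3, Smad4, Smad7 and Pmepa1 were 1.10, 1.02, 1.06 and 1.07. The sum over all peaks was itself 11.5% higher in paused cells. As a share of that total, the difference of paused from control was -17.2% at Skil and -8.75% at Smad4, both without overlap, and 15.2% at Smad2, with overlap. Scaled to reads in peaks, the ratio stayed above 1 at Smad2 (1.15), Ski (1.05) and Tgif1 (1.04) and below 1 at Skil (0.828), while Smad3, Smad4, Smad7 and Pmepa1 moved from above to below 1 (0.988, 0.913, 0.946 and 0.957). Scaled by TMM, the ratios of Smad4, Smad7 and Pmepa1 moved below 1 too (0.943, 0.978 and 0.990), and that of Smad3 did not (1.02).

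**Figure D5:**
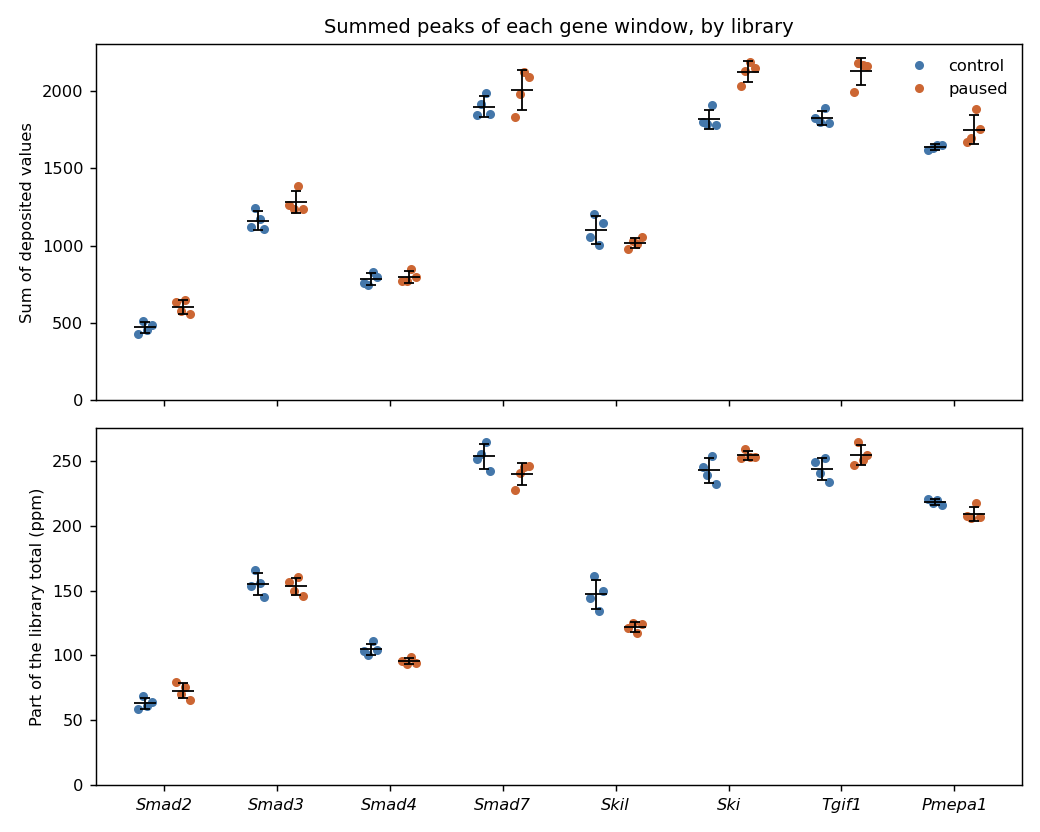
Upper panel, the sum of deposited values over each gene's window by library (control blue, paused orange, mean and SD as bars). Lower panel, the same sum as a part of the library's total over all peaks (ppm). Paused libraries lie above all controls for Smad2, Ski, Tgif1 and Pmepa1 in the upper panel, and below all controls for Smad4 and Skil in the lower one.

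A peak that passed the test stood at the 50 kb limit of 2 genes. Just outside the Smad2 window, at 50068 bp, a peak nearest to Zbtb7c went from 31.5 ± 9.99 to 50.9 ± 5.17, while the last peak inside, at 48485 bp, was weak (7.94 and 7.48) and not tested. Just inside the Tgif1 window, at 47341 bp, stood the called peak at chr17:70900773-70900973, and the next one outside, at 50056 bp, had means of 24.0 and 23.9. At the other 6 genes neither edge peak was called. With a window of 25 kb, 9 of 126 member peaks were called higher and 5 lower, and with 100 kb, 27 of 298 were higher and 12 lower. Beside these stand 11.0% higher and 2.91% lower calls of all tested peaks.

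Other genes of the pathway were counted in the same fit, over peaks for which they were the nearest gene within 50 kb. Ligands and extracellular regulators had few calls, 2 higher and none lower of 52 tested peaks. Both were strong sites: an Inhbb peak (an activin subunit) from 123 ± 9.46 to 181 ± 11.2 and a peak inside Fst (follistatin, which traps activin) from 77.9 ± 7.17 to 119 ± 12.7. Nodal, its co-receptor gene Tdgf1, its antagonist genes Lefty1, Lefty2 and Cer1, and Gdf1 and Gdf3 had none. Nodal's 8 tested peaks had a median log2 change of -0.04, and the 5 of Lefty2 -0.29. Receptors and the convertases that process the ligands had 9 higher and 1 lower of 84. In this list a peak 9642 bp from Acvr1b, the type I activin and Nodal receptor, rose from 44.8 ± 7.01 to 96.0 ± 16.1 (log2 change 1.08, limma-trend adjusted p 1.2e-05). Pcsk6, a convertase of Nodal, had 4 higher calls of 16 peaks, the largest at a log2 change of 1.30. The 1 lower call was at the other convertase, Furin, from 20.7 ± 2.44 to 10.7 ± 6.41.

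The BMP-side Smads (Smad1, Smad5, Smad6 and Smad9) had 6 higher and 2 lower calls of 54 tested peaks. Smad6, the inhibitory Smad of that branch, held 3 of the higher and 1 of the lower calls. Cofactors and modifiers of Smads had 20 higher and 3 lower of 152, among them 5 higher of 30 at Nedd4l, a ubiquitin ligase for Smads, and 3 higher of 8 at Rnf111 (Arkadia), the ligase that degrades Skil, Ski and Smad7. A peak inside Rnf111 rose from 64.3 ± 6.86 to 125 ± 18.7 (log2 change 0.94, limma-trend adjusted p 1.8e-05). A peak inside Ldlrad4, another restrainer of Smad2 and Smad3 related to Pmepa1, fell from 38.0 ± 6.75 to 15.4 ± 5.33 (log2 change -1.29), while 3 other Ldlrad4 peaks rose. Foxh1 had no peak. The Smad2 and Smad3 target genes of early development had 11 higher and 4 lower calls of 84, 5 of the higher ones at Otx2, a forebrain and epiblast factor, and 1 in each direction at Wnt3 (log2 changes 1.08 and -1.18) and at Eomes (1.00 and -0.60), regulators of the primitive streak. The list medians were 0.06 for ligands, 0.13 for receptors, 0.09 for BMP-side Smads, 0.03 for cofactors and 0.11 for targets, beside 0.10 for all tested peaks. The shares called in either direction were 3.85%, 11.9%, 14.8%, 15.1% and 17.9%, beside 13.9%.

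In the authors' deposited table, 18 member peaks had an FDR under 0.05, 13 higher and 5 lower, beside 11.0% of all its peaks. Of these, 17 were also called here.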

How the data were processed

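ATAC-seq of 4 control and 4 paused E14 libraries was analysed from 1 table of 134407 peaks. Per the submitters' processing notes, FastQC, Trim Galore, Bowtie2 2.4.1, MACS3 3.0.3 and DiffBind 3.16.0 were used with genome build mm10; their order, settings, read filters and handling of the Tn5 offset are not given in the sources used here. The deposited per-library values are a scaled signal in which every read of a library counts for the same amount: between 99.8% and 100% of the values were whole multiples of 1 step within a tolerance of 0.0051. Per the file headers, the authors also deposited log2 group concentrations and a log2 fold, and the p-value and FDR of their own comparison; only the fold and FDR were used, where the authors' deposited table is named. No column of per-sample values was left unused.

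The main test was limma-trend (limma 3.58.1, R 4.3.3) on log2(value + 1), with treatment as the only term, over the 127402 peaks whose values averaged 10 or more, Benjamini-Hochberg adjusted, threshold 0.05. Fold changes on this scale understate those of weak peaks. On the recovered whole reads, edgeR 4.0.16 called 16142 peaks with TMM and 21045 with the deposited factors, and DESeq2 1.42.0 called 5794. On simulated data over 127402 peaks for this comparison, limma-trend called 66 of 100 peaks changed by log2 1, 92 of 100 changed by log2 1.5, and 2 unchanged peaks. These counts describe the simulated peaks only and were not split by peak strength. Whether they hold for weak peaks, or under the shift with peak strength seen in the data, was not tested. Intervals are 95% and cover the spread between libraries, and limits from a count of 0 cover counting error only, since PCR copies are not independent molecules.

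Gene spans came from a RefSeq table of GRCm38.p6 without strand or exons; strand was taken from promoter entries where present. Member genes and pathway lists were chosen with earlier results of these data known. Named peaks are, for each gene, the peak nearest to its start (either end where strand is not given, at most 2 kb away), the strongest peak nearest to the gene, and every called peak, with edge peaks as a description. In the comparison of start peaks the stronger end peak was used in place of the nearest where strand is not given. Alternatives were the pseudocount, the filter, 6 other scalings or tests, a replicate block, each library left out in turn, other windows and nearest peaks only. Fits without 1 library kept the 127402 peaks of the main test, without a new filter on the remaining libraries. The alternatives for sums over a gene's window were chosen after seeing the data.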

Additional observations from a re-analysis of the deposited data

Results flagged for a closer look

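In 94 groups of 4 values, 3 had 1 library far from the other 3, judged by the gap to the nearest value over the whole range (above Dixon's 95% critical value); chance gives about 1 in 20 such groups. Control replicate 1 had 21161767 reads in peaks, whereas the other control libraries had 4434037 to 6262445. Without that library 14 member peaks were called higher and 4 lower, beside 8.34% and 1.83% of all tested peaks. The summed value of the Ski window was 1908.32 in control replicate 3 and 1778.09 to 1796.59 in the other control libraries, and all were below the paused libraries. For the Tgif1 window, paused replicate 1 had a sum of 1994.51, lower than the 2163.92 to 2179.8 of the other paused libraries and above all control libraries.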

How the results depend on the processing

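Depth limits the weak peaks most: 8 of the 181 member peaks were below the mean value of 10 and not tested. With a mean of at least 50 reads, 13 member peaks were called higher and 1 lower. At that setting 44882 peaks were tested in all and 10487 called, 21.6% higher and 1.76% lower. Over all peaks DESeq2 called 5794, limma-trend after loess correction 10956, and the fits without 1 library 11567 to 15806. Member peaks called higher numbered 8 in edgeR with TMM, 6 in edgeR scaled to reads in peaks, 4 in DESeq2, 7 in limma-trend after TMM rescaling, 6 after loess correction, 9 in a 25 kb window and 27 in a 100 kb window. Those called lower numbered 11 in edgeR with TMM, 16 when scaled to reads in peaks, 2 in DESeq2, 10 in limma-trend after TMM rescaling and 12 in a 100 kb window. Of all tested peaks DESeq2 called 3.06% higher and 1.49% lower, and limma-trend after TMM rescaling 5.77% and 4.28%. Without 1 library, 10 to 16 were higher and 2 to 7 lower, beside 7.05% to 9.96% and 1.82% to 3.04% of all tested peaks. The cause was not tested beyond the smaller tables and windows. Of the 21 called peaks, 14 lost the call in at least 1 of the 8 fits without 1 library. Without control replicate 4, paused replicate 1 or paused replicate 4, the lower calls numbered 2, 3 and 3, and without paused replicate 4 all calls numbered 11567.

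Changes of sign were seen at 11 of the 16 named peaks that were not called, and at none of the 21 that were. With edgeR and TMM, the change was -0.029 at Smad4 peak 73623171, -0.083 at Skil peak 31094659, -0.11 at Tgif1 peak 70843805, -0.027 at Tgif1 peak 70850230 and -0.0066 at Pmepa1 peak 173276511. Scaled to reads in peaks, it was -0.084, -0.14, -0.17, -0.088 and -0.059 at these 5, -0.044 at Smad7 peak 75366699 and -0.046 at Pmepa1 peak 173225334. DESeq2 gave -0.032 at Smad4 peak 73623171, -0.085 at Skil peak 31094659, -0.080 at Tgif1 peak 70843805 and -0.022 at Pmepa1 peak 173276511. After TMM rescaling limma-trend gave -0.048, -0.082, -0.048 and -0.033 at these 4 and -0.0030 at Smad7 peak 75366699. After loess correction it gave -0.15, -0.18, -0.062, -0.13 and -0.10 at these 5, -0.026 at Smad2 peak 76241278 and -0.039 at Smad4 peak 73703912. Over the fits without 1 library the change ran from -0.16 to 0.058 at Smad3 peak 63758045, from -0.17 to 0.11 at Smad7 peak 75394943, from -0.063 to 0.16 at Skil peak 31094659, from -0.047 to 0.16 at Tgif1 peak 70843805 and from -0.021 to 0.18 at Pmepa1 peak 173276511.

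Same-numbered control and paused libraries were not treated as pairs in the main test. Their deviations from the group means correlated at 0.079, 0.036, 0.13 and 0.039, while differently numbered libraries ran from -0.10 to 0.070. For control replicates 1, 3 and 4 the same-numbered paused library had the highest correlation. Control replicate 2 correlated more with paused replicate 1 (0.070) than with paused replicate 2. Whether same-numbered libraries shared a batch was not tested. With a replicate block, 21994 peaks were called in all, 13.6% of all tested peaks higher and 3.63% lower. Of the member peaks 21 were then called higher and 6 lower, the original 21 among them.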

Other observations

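Beyond the 50 kb window of Smad2, further peaks on its Zbtb7c side were called higher. Between 50 and 100 kb from Smad2, 13 peaks were tested and 4 were called higher and none lower in limma-trend, all 4 nearest to Zbtb7c, a zinc finger gene. Over all tested peaks, 11.0% were called higher and 2.91% lower. Inside the window, the peak at chr18:76200584-76200784 lies between these 4 and the called pair and was not called, with a log2 change of 0.02. At chr18:76171665-76171865, 69325 bp from Smad2, control libraries read 95.4, 93.2, 83.0 and 88.2 and paused libraries 153, 153, 163 and 130. The groups were apart, with a log2 change of 0.73 ± 0.13 and a limma-trend adjusted p of 0.00013. The other 3 were at chr18:76160963-76161163 (152 ± 22.2 to 203 ± 25.5), chr18:76189137-76189337 (10.1 ± 5.12 to 22.0 ± 2.84) and chr18:76190922-76191122 (31.5 ± 9.99 to 50.9 ± 5.17).

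Over all 8 genes, Smad2 included, the outer band from 50 to 100 kb held 113 tested peaks, of which 12 were called higher and 6 lower, with a median log2 change of -0.01. These shares were 10.6% and 5.31%, beside 11.0% and 2.91% of all tested peaks, whose median was 0.10. Smad3 had 1 higher call, Smad4 2 and Ski 1 there, with no lower call at any of the 3, Smad7 had 2 in each direction and Pmepa1 had none. Tgif1, whose window had no fall, had 3 lower and 1 higher call of 21 there, and Skil, whose window had no rise, had 1 in each direction of 18. The median of the outer Skil peaks was -0.16, the same as inside its window. No difference between the bands was tested.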
